A study of Mus musculus with 8 samples.

Results

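Transcripts of the glutamate and GABA receptor subunits were measured in sorted mouse neural stem and progenitor cells. The family was chosen by gene symbol, taken through the transcript accession of each array probe, and covered the AMPA, kainate, delta, NMDA and metabotropic glutamate receptors and the GABA-A and GABA-B receptors. It held 47 genes, 26 for glutamate and 21 for GABA receptors, and 36 of them were among the 13786 genes tested. The rule used symbols and no measured value. Mouse embryonic stem cells were turned into neurospheres, with a line that overexpresses the transcription factor NFIA and a control grown together, and fluorescence-activated sorting split the mixture before RNA was taken. There were 4 groups of 2 arrays: NFIA cells of secondary neurospheres (SN_NFIA), control cells of secondary neurospheres (SN_control), NFIA cells of primary neurospheres (PN_NFIA) and control cells of primary neurospheres (PN_control). Secondary neurospheres were at passage 1 and day 12 of culture, and primary neurospheres at passage 0 and day 6. The labels do not say how NFIA was driven, how many clones the line held, or whether arrays of 1 group came from separate cultures. The p-values therefore measure only the spread between these samples, which may be technical.

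AMPA, kainate and NMDA receptors are cation channels gated by glutamate, and NMDA receptors also bind glycine. Metabotropic glutamate receptors act through G proteins. GABA-A receptors are chloride channels built from mixed alpha, beta, gamma and rarer subunits, and GABA-B receptors are G protein-coupled pairs of the Gabbr1 and Gabbr2 products. Neural progenitors are known to carry GABA-A and AMPA or kainate receptors before synapses form, astrocytes to carry metabotropic receptors such as those of Grm3 and Grm5, and oligodendrocyte precursors to carry AMPA receptors. NFIA is known for its part in the start of astrocyte formation.

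Signal was well above background for 45.38% to 56.44% of an array's spots, and precision is limited by the number of arrays. For 7 of 8 samples the attached scanner file and the column of the authors' value table held different arrays. Values below follow the value table. For called receptor genes and for some with the smallest p, calls lost and differences reversed under the other assignment are given too. Other receptor differences were not followed there, among them those of Grm3 and Gabrb2 between NFIA and control cells over both passages. The same holds for Grin2a, Gabra4 and Grik1. Nfia, the cell markers and the other gene lists are given under the value table alone. Sample titles and source names also conflict, since the source name is that of the NFIA line for all 4 controls, and of the wild type for PN_NFIA 1 and SN_NFIA 2. Groups follow the titles. Each passage filled a slide row and each cell type its own slide columns, which can hold under only a single assignment of arrays to samples. There position and group cannot be told apart, and position was not tested under either assignment. Nfia itself stood at 1.70 and 1.62 in SN_NFIA, 1.00 and 0.61 in SN_control, -0.24 and 0.93 in PN_NFIA and -1.30 and -0.30 in PN_control, in log2 signal over the 75th percentile of the array, the scale of every level below. NFIA cells exceeded control cells at each passage, by 1.00 ± 0.32 (SE) over both with an adjusted p of 0.171, and of 0.0452 with equally numbered arrays as pairs. Of the 8 arrays, 6 correlated best with the other array of their own group. SN_control 1 was closest to PN_NFIA 2, and SN_control 2 to SN_NFIA 2. All 13 markers of neural stem and progenitor cells passed the filter on dim probes, and so did all 17 neuron markers.

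NFI factors bind the palindrome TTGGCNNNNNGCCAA and, more weakly, the single arm TTGGC, which reads GCCAA on the other strand. The promoter windows of 4 receptor genes are shown because these genes were among those with the smallest p between NFIA and control cells, higher in NFIA cells for Gabbr2 and Grm3 and lower for Gria2 and Grik3. Each window is the 250 bases before the gene's start, from RefSeq on build GRCm38.p6, read 5′ to 3′, with letters that match the single arm, on either strand, in capitals. They lie at chr4:46991715-46991964 on the minus strand for Gabbr2, at chr5:9725353-9725602 on the minus strand for Grm3, at chr3:80802836-80803085 on the minus strand for Gria2 and at chr4:125490446-125490695 on the plus strand for Grik3.
Gabbr2: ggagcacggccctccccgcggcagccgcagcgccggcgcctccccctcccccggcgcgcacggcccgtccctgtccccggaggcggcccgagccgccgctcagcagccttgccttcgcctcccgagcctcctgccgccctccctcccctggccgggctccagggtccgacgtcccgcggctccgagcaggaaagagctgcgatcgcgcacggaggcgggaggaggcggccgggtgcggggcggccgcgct
Grm3: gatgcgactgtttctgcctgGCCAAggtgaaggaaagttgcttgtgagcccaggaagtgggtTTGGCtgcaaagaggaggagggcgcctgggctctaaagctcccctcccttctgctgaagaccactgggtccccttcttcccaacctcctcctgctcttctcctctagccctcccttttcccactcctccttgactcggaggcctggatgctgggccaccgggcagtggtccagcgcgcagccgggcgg
Gria2: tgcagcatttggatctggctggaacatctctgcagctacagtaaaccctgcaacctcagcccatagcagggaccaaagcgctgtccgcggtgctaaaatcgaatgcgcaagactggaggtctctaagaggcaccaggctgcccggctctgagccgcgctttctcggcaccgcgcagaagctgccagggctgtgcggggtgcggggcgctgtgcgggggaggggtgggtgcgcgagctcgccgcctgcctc
Grik3: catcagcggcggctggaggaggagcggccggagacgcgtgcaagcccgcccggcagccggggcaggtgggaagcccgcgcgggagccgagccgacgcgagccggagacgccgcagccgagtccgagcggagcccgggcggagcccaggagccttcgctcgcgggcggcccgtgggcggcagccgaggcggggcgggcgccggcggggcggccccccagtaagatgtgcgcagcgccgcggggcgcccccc
The Grm3 window held 2 matches, 1 on each strand, and the other 3 windows held 0. The 4 genes were not the only ones with such a p. Gabrr1 had a slightly smaller p than Grm3 over both passages, and its window, not shown, held 0 matches. Windows were at hand for 32 of the 47 receptor genes, 39 in all, and 17 of them (43.6%) held a single arm, against 41.5% of all 32851 windows. The whole palindrome was in 0 of the 39 windows and in 12 of all windows (0.0365%). A match is a string of letters and not a site, and these shares say nothing of binding.

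A gene was tested if some group had both its arrays well above background for a probe. This held for all 4 AMPA and all 5 kainate subunits, 4 of 7 NMDA and 7 of 8 metabotropic genes. Among GABA receptors it held for 5 of 6 alpha, 3 of 3 beta, 3 of 3 gamma and 2 of 3 rho subunits, both GABA-B subunits, and 0 of 4 others, the delta, epsilon, pi and theta subunits. Grin1, the obligate subunit of NMDA receptors, was well above background on 1 array only, SN_control 1, through its single probe, and so was Gabrp. Grin2c was detected on SN_NFIA 1 only, Grid1 on SN_NFIA 2 only and Grm6 on PN_NFIA 1 only. Gabra6, Gabrd, Gabre, Gabrq, Gabrr3 and Grin2d were not well above background on any array. The probe used was detected on all 8 arrays for 22 of the 36 tested genes. Gabra5 passed through secondary groups alone, and Grin3b and Grm4 through NFIA groups alone, so these genes could only enter with a level that was high there.

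**Figure D1:**
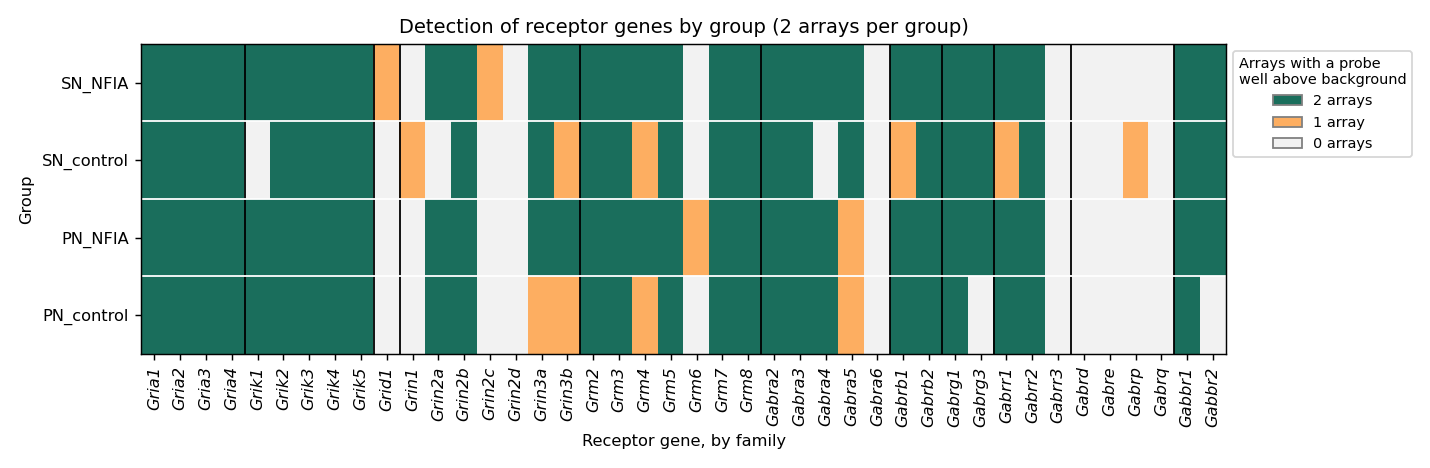
Detection of 42 of the receptor genes, in columns ordered by family and parted by black lines, in the 4 groups, in rows. Colour gives on how many of the 2 arrays of a group any probe of the gene was well above background: all AMPA genes fill every group, while Gabra6, Gabrd, Gabre, Gabrq, Gabrr3 and Grin2d are blank throughout.

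Secondary against primary neurospheres was compared over both cell types, 4 arrays against 4. In the limma fit over all genes, 10 of the 36 receptor genes (27.8%) had an adjusted p under 0.05, all of them higher in secondary neurospheres. Of all genes tested, 3.41% rose and 7.29% changed either way. The 10 genes were Grm5, Grm3 and Grm4 of the metabotropic receptors, Gria1, Gria4 and Grin3a of the ionotropic glutamate receptors, Gabrg1, Gabrg3 and Gabra5 of the GABA-A receptors, and Gabbr2. With NFIA and control arrays of 1 number and passage as a random block, a fit chosen after seeing the data, Grm5 alone of the receptor genes and 53 of all genes passed (Grm5 adjusted p 0.0424), and the other 9 had adjusted p between 0.067 for Gabrg1 and 0.114 for Gabrg3. In the fit without a block 0 of the 36 fell, against 3.88% of all genes, and 2 (5.56%), Gabra3 among them, were lower at an unadjusted p under 0.05, against 15.3% of all genes. Of the 22 receptor genes whose probe was well above background on all 8 arrays, 5 rose, and of all 11665 such genes 342 rose. The median difference of the 36 receptor genes was 0.29 in log2, against -0.084 over all genes. Every secondary array exceeded every primary array for 6 of the 36 (16.7%), against 4.43% of all genes. These 6 were Grm5, Gria1, Gria4, Gabrg1, Gabrg3 and Gabra5. Gabra5, counted among the 10 and the 6, had passed the filter through secondary groups alone. It could only enter with a level that was high there.

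Grm5 encodes a metabotropic receptor that couples to phospholipase C and calcium release. Its level was 1.17 and 1.81 in SN_NFIA, -0.76 and 0.36 in SN_control, -3.44 and -2.68 in PN_NFIA and -3.10 and -3.25 in PN_control. All 4 secondary arrays lay above all 4 primary arrays. The difference was 3.76 ± 0.41 (SE), a fold of 13.6, with an adjusted p of 0.0109. Grm3 encodes a metabotropic receptor that lowers cyclic AMP and is known from astrocytes. It stood at -0.58 and 0.50 in SN_NFIA, -2.41 and -1.49 in SN_control, -3.01 and -1.61 in PN_NFIA and -3.60 and -3.09 in PN_control. The passages overlapped, since PN_NFIA 2 exceeded SN_control 1, and both NFIA groups lay above the control group of their passage. The Grm3 difference was 1.84 ± 0.42 (adjusted p 0.0432). Grm4, a presynaptic receptor of the class that lowers cyclic AMP, was near the detection limit, at -2.85 and -2.63 in SN_NFIA, -3.65 and -3.26 in SN_control, -3.61 and -3.85 in PN_NFIA and -4.37 and -4.27 in PN_control. Its difference was 0.92 ± 0.17 (adjusted p 0.0258), and SN_control 1 lay below PN_NFIA 1. Of the other metabotropic genes none passed: Grm7 had a difference of 1.46 ± 0.46 (adjusted p 0.0954), Grm2 one of -0.052 ± 0.18 and Grm8 one of -0.35 ± 0.29.

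Gria4, a pore-forming AMPA subunit with an early developmental peak, was detected on all 8 arrays. It measured 2.70 and 2.15 in SN_NFIA, 1.502 and 2.26 in SN_control, 0.55 and 1.40 in PN_NFIA and 0.32 and 0.70 in PN_control. Secondary arrays stood above primary arrays without overlap, by 1.41 ± 0.27 in log2 (adjusted p 0.0289). Gria1, the AMPA subunit best known from synaptic plasticity, measured -2.42 and -2.41 in SN_NFIA, -0.63 and -2.05 in SN_control, -4.26 and -3.52 in PN_NFIA and -3.14 and -3.08 in PN_control. The highest value was that of SN_control 1, and the passages again did not overlap, with a difference of 1.62 ± 0.32 (adjusted p 0.0304). Gria2, whose edited product closes AMPA channels to calcium, had a passage difference of 0.32 ± 0.22 (adjusted p 0.396), and Gria3 one of -0.046 ± 0.26 (adjusted p 0.931). Among NMDA genes, Grin3a rose. It encodes a glycine-binding subunit of early development that lowers calcium entry, and it measured 0.41 and 0.40 in SN_NFIA, -2.005 and -0.54 in SN_control, -2.39 and -1.11 in PN_NFIA and -4.13 and -3.45 in PN_control. The levels were highest in SN_NFIA and lowest in PN_control, SN_control 1 lay below PN_NFIA 2, and the passage difference was 2.34 ± 0.40 (adjusted p 0.0233). Grin2a, Grin2b and Grin3b had differences between 0.40 and 1.04 and did not pass. None of the 5 kainate genes passed: Grik4 had a difference of 1.22 ± 0.39 (adjusted p 0.0978), and the other 4 lay between -0.28 and 0.17.

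Gabrg1, a gamma subunit known from glia as well as from some neurons, measured 0.81 and 1.70 in SN_NFIA, -1.15 and 1.64 in SN_control, -2.98 and -1.45 in PN_NFIA and -3.86 and -3.09 in PN_control. All secondary arrays exceeded all primary arrays, and SN_control 1 lay well under the other 3 secondary arrays. The passage difference was 3.59 ± 0.62, a fold of 12.1 (adjusted p 0.0238). Gabrg3, a further gamma subunit, measured -1.96 and -2.30 in SN_NFIA, -2.24 and -0.62 in SN_control, -4.01 and -3.71 in PN_NFIA and -5.85 and -6.55 in PN_control. No PN_control array was well above background, the passages did not overlap, and the difference was 3.25 ± 0.65 (adjusted p 0.0311). With each PN_control array set at its detection limit, the dimmest signal that still counts as well above background there, it was 2.32. Gabra5, an alpha subunit of extrasynaptic receptors in the hippocampus, measured -3.17 and -2.42 in SN_NFIA, -2.33 and -2.81 in SN_control, -3.55 and -4.46 in PN_NFIA and -3.97 and -4.53 in PN_control. Only 1 of 2 arrays of each primary group was well above background, and the difference was 1.45 ± 0.30 (adjusted p 0.033). Gabbr2 encodes the GABA-B subunit that couples to G proteins and brings its partner to the surface. It measured 0.45 and 1.81 in SN_NFIA, -2.34 and -0.13 in SN_control, -3.04 and -1.20 in PN_NFIA and -4.05 and -3.98 in PN_control. SN_NFIA stood highest and PN_control, not well above background, lowest, while SN_control 1 lay below PN_NFIA 2. The Gabbr2 difference was 3.01 ± 0.59 (adjusted p 0.0299). Gabbr1, its partner, had a difference of -0.03 ± 0.28 (adjusted p 0.957). Gabra3, an alpha subunit of the embryonic brain, had one of -1.14 ± 0.39 (adjusted p 0.116), and Gabra2, Gabra4, Gabrb1, Gabrb2, Gabrr1 and Gabrr2 lay between -0.49 and 0.26.

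**Figure D2:**
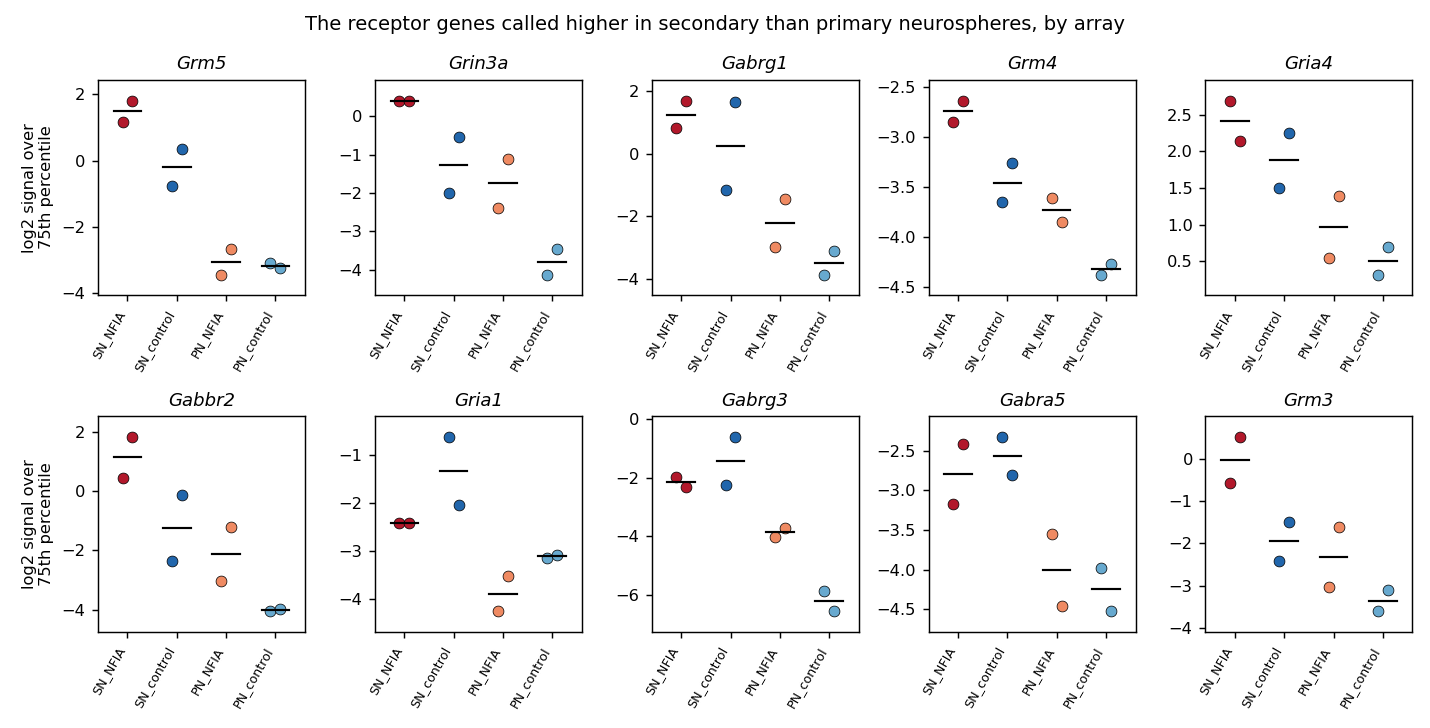
The 10 receptor genes that were higher in secondary neurospheres by the test without a block, 1 panel each in order of p. The vertical axis is log2 signal over the 75th percentile of the array and differs between panels, points are single arrays and lines the means of the 2 arrays of a group. In Grm5, Gria1, Gria4, Gabrg1, Gabrg3 and Gabra5 every SN point lies above every PN point, and in Grin3a, Grm4, Gabbr2 and Grm3 SN_control 1 lies below a PN_NFIA array.

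Markers of other cells moved with passage as well. The summed level of 12 tested astrocyte markers out of 13 was 9.03 and 9.85 in SN_NFIA, 5.93 and 7.88 in SN_control, 6.21 and 7.76 in PN_NFIA and 4.32 and 4.59 in PN_control, as log2 of the sum. That of the 11 oligodendrocyte lineage markers was 4.59 and 6.86 in SN_NFIA, 4.07 and 8.70 in SN_control, 3.11 and 3.42 in PN_NFIA and 3.40 and 3.57 in PN_control. That of the 17 neuron markers was 6.79 and 6.57 in SN_NFIA, 8.34 and 6.93 in SN_control, 7.75 and 7.47 in PN_NFIA and 8.12 and 8.06 in PN_control. Within the astrocyte list 4 genes rose with passage and 0 fell, within the oligodendrocyte lineage list 4 rose and 0 fell, and within the neuron list 0 rose and 5 fell. These counts are from the fit without a block, where 3.41% of all genes rose and 3.88% fell. SN_control 1, the array low in Gabrg1, Gabbr2 and Grm7 among secondary arrays, was also the lowest secondary array for the summed astrocyte and oligodendrocyte lineage markers. It was the highest of all 8 arrays for the summed neuron markers and the highest secondary array for Gria1 and Gabra5. Bright markers weigh most in such sums, and single neuron markers differed. SN_control 1 was the highest array for Tubb3 (6.84) and Ina (5.53). It lay below both PN_control arrays for Stmn2 (4.56 against 5.58 and 4.93) and Nefl (1.35 against 3.77 and 2.59). With passage 0 of 12 pluripotent cell markers rose and 1 fell, and of 11 tested mesenchyme and endoderm markers out of 14, 2 rose and 0 fell. Within NFIA cells alone 6 of the 12 pluripotent cell markers fell, against 185 of all 13786 genes. Within control cells 0 of them fell, against 19 of all genes. Their summed level was 3.57 and 5.08 in SN_NFIA, 4.91 and 5.65 in SN_control, 6.64 and 6.00 in PN_NFIA and 5.55 and 5.64 in PN_control. Of 7 microglia and blood markers 2 were tested, and Ptprc, Aif1, Cx3cr1 and Tyrobp did not pass the filter. In such bulk samples fewer cells of a type and less RNA per cell cannot be told apart, and the part of cell composition in the receptor differences was not tested.

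The count of 10 also depended on single arrays and on the assignment of arrays to samples. Without any 1 of PN_NFIA 1, PN_control 1, PN_control 2, SN_NFIA 1 or SN_NFIA 2, Grm5 was the 1 receptor gene called. Without PN_NFIA 2 there were 4 (Grm5, Grin3a, Gabrg1 and Gria4), without SN_control 2 there were 6, and without SN_control 1 there were 13, which included all 10. Without PN_NFIA 1 and SN_NFIA 2, the arrays whose source name says wild type, 0 receptor genes and 0 of all genes passed. The 10 differences stayed positive, and Grm5 had an adjusted p of 0.081. With arrays taken from the files attached to each sample, 0 passed of the receptor genes and of all genes, and 8 of the 10 differences turned negative. With groups from the source names 0 receptor genes passed as well. With equal numbers matched between passages as a block, 5 passed: Grm5, Gabrg1, Gabbr2, Grin3a and Grm3.

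Within each cell type, 2 arrays stood against 2. In NFIA cells 1 receptor gene rose with passage, Grm5, by 4.55 ± 0.46 (adjusted p 0.0204), while 0.544% of all genes rose and 1.89% changed. With arrays from the attached files the Grm5 difference in NFIA cells was -0.94, and no receptor gene passed in either cell type with the attached files, with the source names or with the numbers matched between passages. Without any 1 of 6 arrays, or without PN_NFIA 1 and SN_NFIA 2 together, the counts in NFIA cells lay between 0 and 1, and without either SN_control array at 5. In control cells 2 rose, while 0.725% of all genes rose and 0.863% changed. Gabrg3 was at least 7.54-fold higher, a bound in which PN_control is set at the lowest signal well above background on each of its arrays. The adjusted p of 0.0166 is that of the difference without raising, 4.78 ± 0.53, and the bound was not tested. Grm5 was 2.97 ± 0.46 higher (adjusted p 0.0437). Without PN_control 1 or PN_control 2 neither passed in control cells, without SN_control 1 there were 6 calls, and without any other single array Gabrg3 alone passed. Gabbr2 was detected on both SN_control and no PN_control array, with an estimate of 6.86-fold higher (adjusted p 0.245). Its PN_control levels already exceeded the lowest signal well above background on those arrays, so this is no bound. Gabra4 and Grik1 ran the other way, well above background on PN_control arrays and on no SN_control array. They were at least 1.06-fold and 1.11-fold lower in SN_control, with adjusted p without raising of 0.385 and 0.677. The lowest signal well above background was itself highest on the SN_control arrays, at -3.24 and -3.72 in log2, against -4.58 to -3.82 on the other 6.

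**Figure D3:**
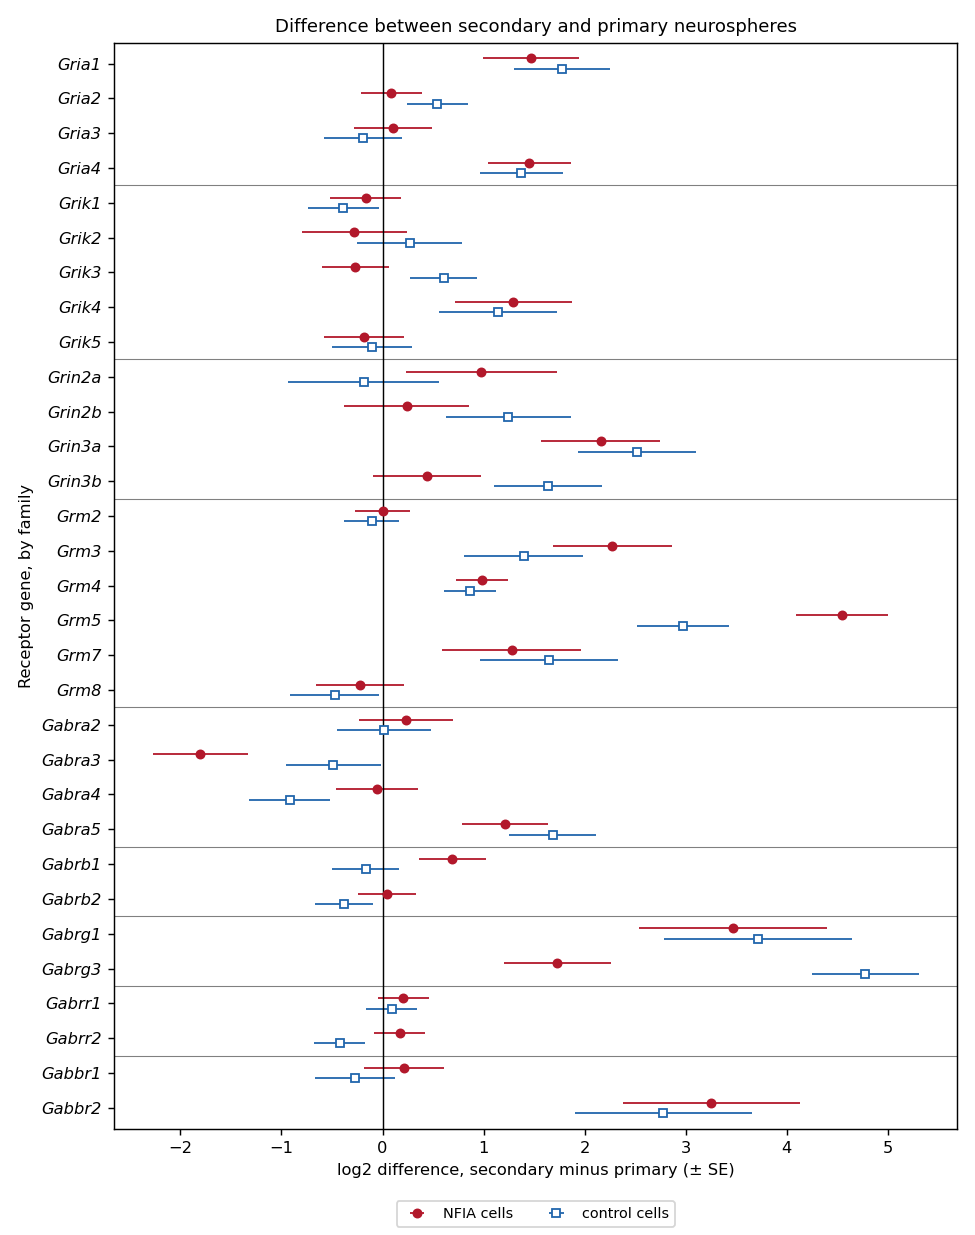
Log2 differences between secondary and primary neurospheres for 31 of the tested receptor genes, ordered by family, with standard errors from the limma fit. Filled circles are NFIA cells and open squares control cells, 2 arrays against 2 in each. Grm5 stands at 4.55 in NFIA and 2.97 in control cells. The control cell values of Gabrg3, Gabbr2 and Grm4 are set against PN_control arrays where the probe used was not well above background. For Gabrg3 only the bound given above is known.

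NFIA against control cells was compared over both passages, 4 arrays against 4. No receptor gene passed in limma, whether with a common prior or with a trend on signal, against 1.97% of all genes. At an unadjusted p under 0.05 there were 13 of 36 (36.1%), 8 higher and 5 lower, against 17.7% of all genes, 10.3% higher and 7.37% lower. Grm4, counted among the 8, had passed the filter through NFIA groups alone. The median difference was 0.20 in log2, against -0.050 over all genes, and it was 0.026 over the 22 genes whose probe was detected on all 8 arrays, against -0.072 over all such genes. With equally numbered arrays of a passage as pairs, Grin3a and Gabbr2 passed, both higher in NFIA cells, against 2.17% of all genes higher in that fit. Grm2, Grm3, Grm4, Grm5, Grm7 and Grm8 had positive differences, from 0.0051 for Grm8 to 1.47 for Grm3, and did not pass. In the same comparison 1 astrocyte marker rose, against 245 of all 13786 genes. Of the 12 tested, 11 had a positive difference, and the median of the 12 was 1.79. The median of the 17 neuron markers was -1.09, and 0 passed. Their part in the receptor differences was not tested.

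Grin3a, with the levels given above, differed by 1.86 ± 0.40 between NFIA and control cells (adjusted p 0.0651, and 0.0462 with pairs). NFIA arrays lay above both control arrays within each passage, and across passages the groups overlapped. Without SN_control 2 the difference was 2.19 and the adjusted p 0.0299. Gabbr2 differed by 2.13 ± 0.59 (adjusted p 0.127, and 0.0483 with pairs). Of its other 2 kept probes, 1 was well above background on both arrays of each NFIA group and on no control array, at least 1.34-fold higher. The other, detected on 1 of the 4 control arrays, gave 1.11 with undetected arrays below their detection limit raised to it. Grm3 differed by 1.47 ± 0.42 (adjusted p 0.136) and Grm4 by 0.65 ± 0.17 (adjusted p 0.107), each with NFIA above control arrays within both passages. Grm4 had passed the filter through NFIA groups alone, so it could only enter with a level that was high there. Its probe was detected on 1 SN_control and 0 PN_control arrays, and with undetected arrays raised to their detection limit it differed by 0.55. Gabrr1, a rho subunit known from the retina, measured -2.66 and -2.46 in SN_NFIA, -3.19 and -3.20 in SN_control, -2.72 and -2.81 in PN_NFIA and -3.07 and -3.50 in PN_control. All 4 NFIA arrays exceeded all 4 control arrays, by 0.58 ± 0.16 (adjusted p 0.135). Such separation held for 3 of 36 genes (8.33%; Gabra2, Gabrr1 and Grm2), against 3.69% of all genes. Grm4, Gabbr2 and Gabrr1 had the opposite sign with arrays from the attached files and with groups from the source names. So did Gria2 and Grik3, described next, while Grin3a did with the source names. The Grm3 difference over both passages was not followed there, and in secondary neurospheres Grm3 had the opposite sign under both.

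Below control cells on all 4 NFIA arrays were Gria2, Grik3 and Gabrb2, 8.33% of the receptor genes tested against 2.25% of all genes. Gria2 measured -0.41 and -0.12 in SN_NFIA, 0.84 and 0.94 in SN_control, -0.73 and 0.022 in PN_NFIA and 0.33 and 0.37 in PN_control. Its difference was -0.93 ± 0.22 (adjusted p 0.0809). Grik3, a low-affinity kainate subunit, measured 1.11 and 0.87 in SN_NFIA, 2.67 and 2.30 in SN_control, 1.01 and 1.51 in PN_NFIA and 1.56 and 2.21 in PN_control. PN_NFIA 2 lay just under PN_control 1, and the difference was -1.06 ± 0.27 (adjusted p 0.1). Gabrb2, a beta subunit of the common adult GABA-A receptor, measured 0.32 and 0.67 in SN_NFIA, 0.90 and 0.77 in SN_control, 0.70 and 0.20 in PN_NFIA and 1.38 and 1.04 in PN_control. It differed by -0.55 ± 0.20 (adjusted p 0.223). This difference was not followed under the other assignments, and in primary neurospheres Gabrb2 had the opposite sign with the source names.

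**Figure D4:**
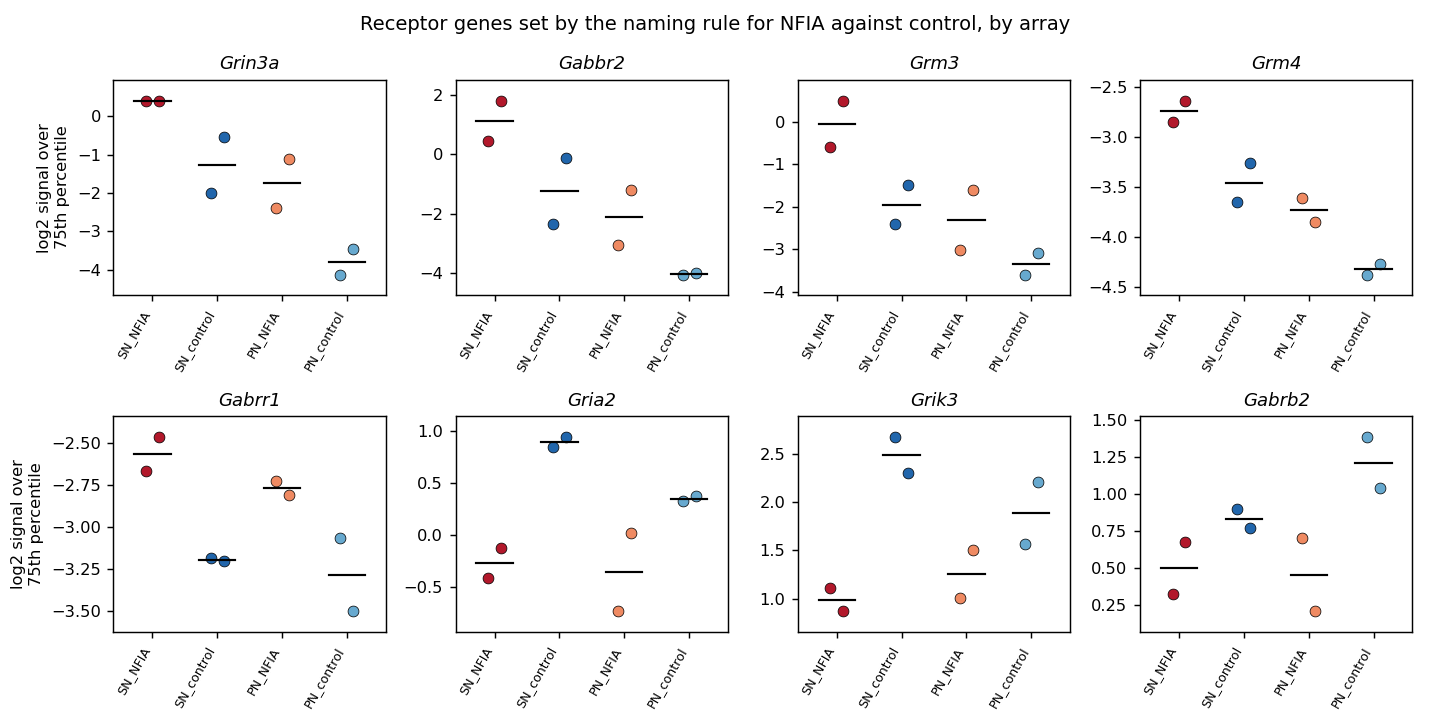
Levels of 8 receptor genes among those with the smallest p between NFIA and control cells over both passages or within one, 1 panel each. The vertical axis is log2 signal over the 75th percentile of the array and differs between panels, points are single arrays and lines the means of the 2 arrays of a group. Within each passage the NFIA points lie above the control points for Grin3a, Gabbr2, Grm3, Grm4 and Gabrr1 and below them for Gria2, Grik3 and Gabrb2. Grm4 passed the filter through NFIA groups alone.

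Within secondary neurospheres no receptor gene passed, against 0.936% of all genes. An unadjusted p under 0.05 was found for 12 of 36, 6 higher and 6 lower, against 15.1% of all genes, 8.77% higher and 6.33% lower. Grm4, counted among the 6 higher, had passed the filter through NFIA groups alone. Grik3 differed by -1.497 ± 0.33 (adjusted p 0.0884) and Gria2 by -1.16 ± 0.31 (adjusted p 0.132). Grm3 differed by 1.91 ± 0.59 (adjusted p 0.189) and Grm5 by 1.69 ± 0.46 (adjusted p 0.14). Grik3, Grm3 and Grm5 had the opposite sign with arrays from the attached files and with groups from the source names. With pairs 3 passed, among them Grik3, lower with an adjusted p of 0.0349, and Grm3, higher with 0.0395, against 1.93% of all genes lower and 2.76% higher in that fit. Without SN_control 2 there was 1 call, higher in SN_NFIA. Grin2a, the NMDA subunit that gains with maturation, measured -1.15 and -3.26 in SN_NFIA, -3.20 and -4.52 in SN_control, -3.66 and -2.71 in PN_NFIA and -3.71 and -3.64 in PN_control. It was well above background on both SN_NFIA and on no SN_control array, at least 2.38-fold higher (adjusted p without raising 0.361). SN_NFIA 2 nevertheless lay below SN_control 1, where the detection limit was higher.

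Gabra4 and Grik1 were likewise detected on both SN_NFIA and no SN_control array. Gabra4, an alpha subunit of thalamic extrasynaptic receptors, measured -3.31 and -3.44 in SN_NFIA, -3.75 and -4.88 in SN_control, -3.60 and -3.04 in PN_NFIA and -3.42 and -3.37 in PN_control. Grik1, a kainate subunit, measured -3.48 and -3.07 in SN_NFIA, -3.64 and -3.79 in SN_control, -2.95 and -3.26 in PN_NFIA and -2.88 and -3.78 in PN_control. Their levels were at least 1.07-fold and 1.15-fold higher in SN_NFIA (adjusted p without raising 0.337 and 0.625), little above the detection limit.

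Within primary neurospheres no receptor gene passed, against 0.312% of all genes, and 3 of 36 had an unadjusted p under 0.05, against 9.57% of all genes. Gabrg3 was detected on both PN_NFIA and no PN_control array, at least 1.4-fold higher. Its difference without raising was 2.34 ± 0.53 (adjusted p 0.164), and the bound was not tested. Grin3a differed by 2.04 ± 0.59 (adjusted p 0.292), and Gabrb2 differed by -0.76 ± 0.29 (adjusted p 0.451). Gabbr2 had an estimate of 3.72-fold higher (adjusted p 0.572), which is no bound, since its PN_control levels needed no raising. It was well above background on both PN_NFIA arrays and no PN_control array. With groups from the source names all 4 primary differences had the opposite sign, for Gabrg3, Grin3a, Gabrb2 and Gabbr2.

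The NFIA effect was set against itself between passages by an interaction term. No receptor gene passed, and neither did any of the 13786 genes, of which 6.75% had an unadjusted p under 0.05. Gabrg3 had an estimate of -3.05 ± 0.75 (adjusted p 0.376), which rests on PN_control arrays not well above background and was -1.19 with these raised to their detection limit. Grm5 had an estimate of 1.57 ± 0.64 (adjusted p 0.734). Gabra3, which measured -0.94 and -2.07 in SN_NFIA, -0.03 and -0.19 in SN_control, 0.13 and 0.46 in PN_NFIA and -0.15 and 0.91 in PN_control, had -1.32 ± 0.67 (adjusted p 0.854). SN_NFIA was its lowest group, and the other 3 groups overlapped. All 3 estimates had the opposite sign with the source names, and those of Grm5 and Gabra3 with the attached files.

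**Figure D5:**
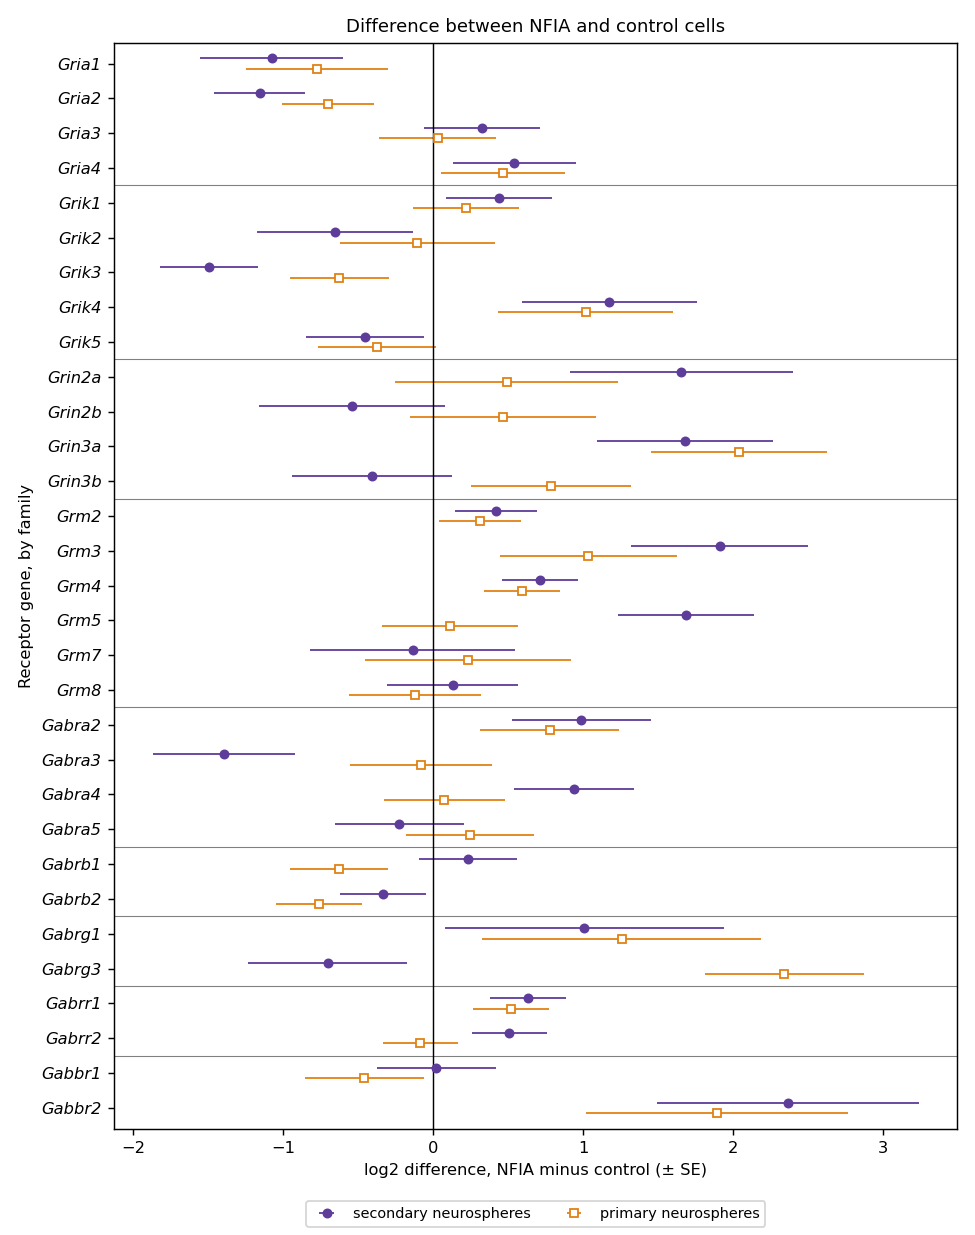
Log2 differences between NFIA and control cells for 31 of the tested receptor genes, ordered by family, with standard errors from the limma fit. Filled circles are secondary and open squares primary neurospheres, 2 arrays against 2 in each. Grm5 stands at 1.69 in secondary and 0.11 in primary neurospheres, and Grin3a at 1.68 in secondary and 2.04 in primary ones. Some values are set against control arrays where the probe used was not well above background. These are Gabra4, Grik1 and Grin2a in secondary and Gabrg3, Gabbr2 and Grm4 in primary neurospheres.

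Many GABA-A genes lie next to each other in the mouse genome. On chromosome 7, Gabrg3 and Gabra5 adjoin. Both were called higher with passage in the fit without a block and not with the random block of NFIA and control pairs. On chromosome 5, Gabrg1 and Gabra2 adjoin, and Gabra4 and Gabrb1 adjoin beyond 1 further coding gene. There Gabrg1 was called higher with passage in the fit without a block and not with the random block. Gabra2, Gabra4 and Gabrb1 had passage differences of 0.12 ± 0.31, -0.49 ± 0.31 and 0.26 ± 0.27 and did not pass. The Gabrr2 and Gabrr1 pair lies on chromosome 4, and Gabra3 lies on the X chromosome, next to Gabrq and with 1 coding gene between it and Gabre.

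The brightest kept probe stood for a gene, and 11 receptor genes had several kept probes. Their probes shared a sign in 10 of the 11 for NFIA against control over both passages, where Gabbr1 was the exception, and in 9 for passage over both cell types, where Gria3 and Grik2 were. These signs include arrays that were not well above background. For Grm5 the probe used gave a passage difference of 3.76. A second probe for the same transcript was well above background on both SN_NFIA arrays and on no other, at least 2.28-fold higher in secondary neurospheres. The remaining Grm5 probe, designed on another transcript and well above background on all 8 arrays, gave 0.28. Gabrg1 gave 3.59 with the probe used, and its second probe, detected on 3 secondary and 0 primary arrays, was at least 2.77-fold higher. Both Gria4 probes were detected on all 8 arrays and gave 1.41 and 1.08. The second probe of Gabrg3 was not well above background on any array, so its difference rests on 1 probe.

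A list of 23 genes of transmitter synthesis and transport and a list of 42 genes of receptor auxiliary and anchoring proteins were described beside the receptors. Of the first list 21 were tested. With passage 4 rose and 2 fell, against 3.41% and 3.88% of all genes. The median was -0.10 in log2, against -0.084 over all genes. Slc17a6, a vesicular glutamate transporter of neurons, had the smallest p in both comparisons and measured -4.51 and -5.39 in SN_NFIA, -2.63 and -3.37 in SN_control, -0.51 and -1.37 in PN_NFIA and 0.60 and -0.16 in PN_control. With passage it fell by 3.61 ± 0.35 in log2 (adjusted p 0.00912). Neither SN_NFIA array was well above background for Slc17a6, and with these raised to their detection limit it fell by 3.09. Abat, which breaks down GABA, rose by 1.16 ± 0.25 (adjusted p 0.0352), and Slc1a3, a glutamate transporter of astrocytes and radial glia, by 1.52 ± 0.35 (adjusted p 0.0432). Between NFIA and control cells 0 of the 21 passed, against 1.97% of all genes, and the median was -0.16, against -0.050 over all genes.

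Of the auxiliary and anchoring list 37 were tested. Between NFIA and control cells 1 rose and 0 fell, against 245 and 26 of all 13786 genes, and the median was -0.15. Shisa9, an AMPA receptor partner, measured -0.22 and 0.054 in SN_NFIA, -3.62 and -2.34 in SN_control, -2.47 and -1.54 in PN_NFIA and -3.59 and -4.75 in PN_control. It was higher in NFIA cells within both passages, by 2.53 ± 0.40 over both (adjusted p 0.0262). Only 1 array of each control group was well above background for Shisa9. With undetected arrays raised to their detection limit the difference was 2.32. Kctd12, a partner of GABA-B receptors, had a difference of 1.31 ± 0.32 (adjusted p 0.0888), and Gsg1l, a further AMPA receptor partner, one of 3.21 ± 0.87 (adjusted p 0.121). Gsg1l was detected on 1 SN_control array only, and its difference was 2.82 with the undetected array raised. With passage 2 rose and 0 fell, against 3.41% and 3.88% of all genes, with a median of -0.092. The 2 that rose were Neto1, a kainate receptor partner, by 1.30 ± 0.23 (adjusted p 0.0244), and Nlgn3, a postsynaptic adhesion protein, by 0.98 ± 0.22 (adjusted p 0.04). Both were named after their values were seen.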

How the data were processed

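RNA of 8 samples was hybridised to 1-colour Agilent arrays on 1 slide, Cy3-labelled per the labels' protocols. The deposited scanner files hold spot intensity after background subtraction, by Feature Extraction 10.5.1.1 per the file headers (10.7.3.1 per the submitters' processing notes), and flags for outliers and signal well above background. The authors' deposited value table holds log2 values centred on each probe's median. Each of its columns was matched to the scanner file it correlates with best (at least 0.9984, and at most 0.3349 with any other), which for 7 of 8 samples was another sample's file, and levels were taken from that file.

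The processed intensity was taken to log2 minus the 75th percentile of the array's non-control spots. Outlier flags left out 126 probes. Of 55555 probes, 26004 had a symbol through the transcript accession, and 18157 of these were well above background on both arrays of a group. The brightest kept probe stood for a gene, which gave 13786 genes. Additive and 4-group models were fitted with limma 3.58.1 in R 4.3.3, and p was adjusted over all genes (Benjamini-Hochberg, under 0.05), after a test on simulated data. Where the dimmer side had no array well above background, a bound is given, and some differences are also given with undetected arrays raised to that limit. A bound covers detection on the dimmer side and not the spread between arrays. Bounds were not tested, and an adjusted p given beside a bound is that of the difference without raising. For the Gabbr2 probe used nothing needed raising, so its values are estimates.

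Deviations of equally numbered NFIA and control arrays from their group means correlated at 0.445 in primary and 0.484 in secondary neurospheres. Those 4 pairs were therefore taken as paired in alternative fits. The main fits used no block, and the counts called there treat all arrays as independent. The labels name no shared culture. Between passages the correlations were -0.188 and 0.042, and the numbers were not taken to pair. The alternatives were other array or group assignments, normexp, quantile and value-table scaling, other filters and probe rules, left-out arrays, blocks and a trend. Normexp used the median spot signal, in place of the planned mean signal. Genes named in full passed a comparison, were among its 6 smallest p (4 for the interaction) or were detected in all of 1 group and none of its counterpart, and of each list the 3 smallest p. Other receptor genes with values complete a subfamily and were chosen after their values were seen. Some receptor genes are not reported here singly and stand in the counts. The members and lists were chosen with earlier results of these data known.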

Additional observations from a re-analysis of the deposited data

Results flagged for a closer look

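Among the receptor genes that entered no test, 3 had a probe well above background on an NFIA array and on 0 of the 4 control arrays, through a single probe each. Grid1, a delta receptor subunit, was detected on 1 of 4 NFIA arrays, SN_NFIA 2. Grin2c, an NMDA subunit, was detected on 1 of 4, SN_NFIA 1, and Grm6, a metabotropic receptor of retinal bipolar cells, on 1 of 4, PN_NFIA 1. Grin1 and Gabrp were detected on SN_control 1 alone. A single array without support from its replicate gives no difference between groups, and none was tested.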

How the results depend on the processing

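Among the values of single receptor genes under the alternatives, 437 kept their direction and their side of the threshold, 135 kept the direction and lost the call, 7 gained a call and 39 reversed. All reversals came from arrays taken from the attached scanner files or groups taken from the source names, which change which arrays stand in a group. With attached files the NFIA difference over both passages was 0.23 for Gria2, 0.44 for Grik3, -0.061 for Grm4, -0.24 for Gabbr2 and -0.056 for Gabrr1, and 0.50 for Gria2 in primary neurospheres. In secondary neurospheres it was 0.63 for Grik3, -1.46 for Grm5 and -1.16 for Grm3. The passage difference with attached files was -0.69 for Gabbr2, -1.05 for Gabrg1, -0.39 for Gabrg3, -0.63 for Gria4, -0.86 for Grin3a, -0.44 for Grm3, -0.012 for Grm4 and -0.27 for Grm5, and -0.94 for Grm5 in NFIA cells. The interaction was -1.34 for Grm5 and 1.00 for Gabra3. With source names the NFIA difference over both passages was -0.81 for Grin3a, 0.77 for Gria2, 0.95 for Grik3, -0.59 for Grm4, -1.26 for Gabbr2 and -0.48 for Gabrr1. In primary neurospheres it was -1.36 for Gabrg3, -0.51 for Grin3a, 0.18 for Gabrb2, -0.55 for Grm4, 0.97 for Gria2 and -0.031 for Gabbr2. In secondary neurospheres it was 1.16 for Grik3, 0.58 for Gria2, -1.55 for Grm5 and -1.995 for Grm3. The interaction was 2.06 for Gabrg3, -1.99 for Grm5 and 1.40 for Gabra3. The 10 genes called for passage over both cell types became 0 with attached files, with source names and without PN_NFIA 1 and SN_NFIA 2, and 5 without a filter on dim probes, with probes well above background on all 8 arrays and with the replicate number as a block. They were 7 with normexp, 1 with a random block of NFIA and control pairs, chosen after seeing the data, and between 1 and 13 with 1 array left out. The 2 called in control cells became 0 with attached files, with source names, without PN_NFIA 1 and SN_NFIA 2, with the replicate block and with only the 2 groups compared, and 1 with normexp, quantile scaling, no filter, probes well above background on all 8 arrays and the mean of the kept probes. A block with crossed numbers, chosen after seeing the data, gave 1, and with 1 array left out there were between 0 and 6. The 1 called in NFIA cells became 0 with attached files, with source names, without PN_NFIA 1 and SN_NFIA 2 and with the replicate block, and lay between 0 and 5 with 1 array left out. With NFIA and control arrays as pairs the 0 calls over both passages became 2 and the 0 in secondary neurospheres 3, and the block changed no call in primary neurospheres or in the interaction. With 1 array left out the NFIA counts lay between 0 and 2 over both passages, and between 0 and 1 within each. The interaction gave 0 calls in each alternative. The median passage difference of all genes was 0.017 with attached files and 0.087 without a filter, against -0.084. The cause of each change was not tested. In simulated data of this design, 0% of genes changed by 1 in log2 and 90.5% of those changed by 2 were called between NFIA and control cells over both passages. Between passages the shares were 0% and 89%. At a change of 2, unchanged genes made up 3.21% of the NFIA calls and 7.77% of the passage calls. The spread of single genes can exceed the simulated one: Gabbr2, at 2.13 ± 0.59 between NFIA and control cells, was not called.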
